A study of Homo sapiens with 4 samples.

Results

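The RNA levels of 36 autophagy genes were examined in DaroR cells, a derivative of the LNCaP prostate cancer cell line resistant to the antiandrogen darolutamide. The line was raised in increasing darolutamide and then kept in it continuously. The paper describes DaroR cells as cultured with the drug in the medium, also in its siRNA experiments. The genes were chosen by name, as rows of the count table that carry the symbols of the ULK1 complex, the class III PI3-kinase complex, the ATG9, ATG2 and WIPI proteins, the ATG conjugation enzymes and ATG4 proteases, the ATG8 proteins and the ubiquitin-binding cargo receptors. All 36 genes were found among the 60606 genes of the table, and all 36 were among the 19349 genes that passed the expression filter. All 4 libraries were made from polyA RNA of the resistant line: 2 libraries from cells given control siRNA (siControl) and 2 libraries from cells given an siRNA pool against the lncRNA LOC730101 (siLOC730101). Both groups come from 1 resistant line, and the pool was compared with 1 control siRNA, so effects of the pool other than loss of LOC730101 cannot be told apart from it.

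Autophagy encloses cytoplasm in a double membrane, the autophagosome, which then fuses with the lysosome. The kinase ULK1 starts the process together with its scaffold RB1CC1, the lipid kinase PIK3C3 marks the site with phosphatidylinositol 3-phosphate, and ATG9A and ATG2 proteins bring in lipid. A chain of ubiquitin-like conjugation reactions joins ATG8 proteins such as LC3 to the growing membrane, where they hold receptors such as SQSTM1 that carry ubiquitin-marked cargo. SQSTM1 and the ATG8 proteins are themselves consumed by autophagy, and mRNA levels do not measure its rate.

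Library totals ranged from 39213498 to 53368158 counts. LOC730101, listed by its identifier ENSG00000216775, had 47.4 and 50.6 normalized CPM (counts scaled to library size with the TMM factors of edgeR) in siControl and 15.4 and 17.9 in siLOC730101, a reduction of 66.0%. The luminal prostate markers KLK3, HOXB13 and KRT8 had at least 383.0 normalized CPM in every library, while the basal markers KRT5 and TP63 and the leukocyte markers PTPRC and CD3E had 0 counts. Other markers of the basal and leukocyte lists were low but present: CD14, CD44 and LYZ had at most 12 counts and VIM had 109 to 155 counts. Of the fibroblast or endothelial markers, COL1A1 had 451 to 797 counts and VWF had 238 to 442 counts. DCN and PECAM1 of that list had at most 2 counts, and COL1A2 had 0 counts. In bulk RNA, fewer cells of a kind and less RNA per cell cannot be told apart.

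The autophagy genes differed widely in level, and the cargo receptors and ATG8 proteins held both ends of the range. To compare genes, normalized CPM was divided by the length in kilobases of all exons annotated for the gene. This length exceeds that of the main coding transcript on GRCh37 by unlike amounts. In ATG3 it is 6110 against 1568 bases, in ATG4A 2927 against 2205, in BECN1 6414 against 2109 and in PIK3R4 5377 against 5016. The order between genes therefore depends on the length used, and levels by transcript length were not computed. SQSTM1, the p62 receptor for ubiquitinated proteins, had the highest mean level over the 4 libraries, with 45.7 CPM per kilobase and a range from 40.0 to 50.9. TAX1BP1, another ubiquitin-binding receptor, followed with 34.9 CPM per kilobase, below the lowest SQSTM1 library in each of its own libraries. The ATG8 proteins GABARAPL2 (31.8 CPM per kilobase) and MAP1LC3B (28.5 CPM per kilobase) and the receptor NBR1 (25.5 CPM per kilobase) came next. GABARAPL2 lay between 30.2 and 34.3 and overlapped both TAX1BP1 and MAP1LC3B.

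**Figure D1:**
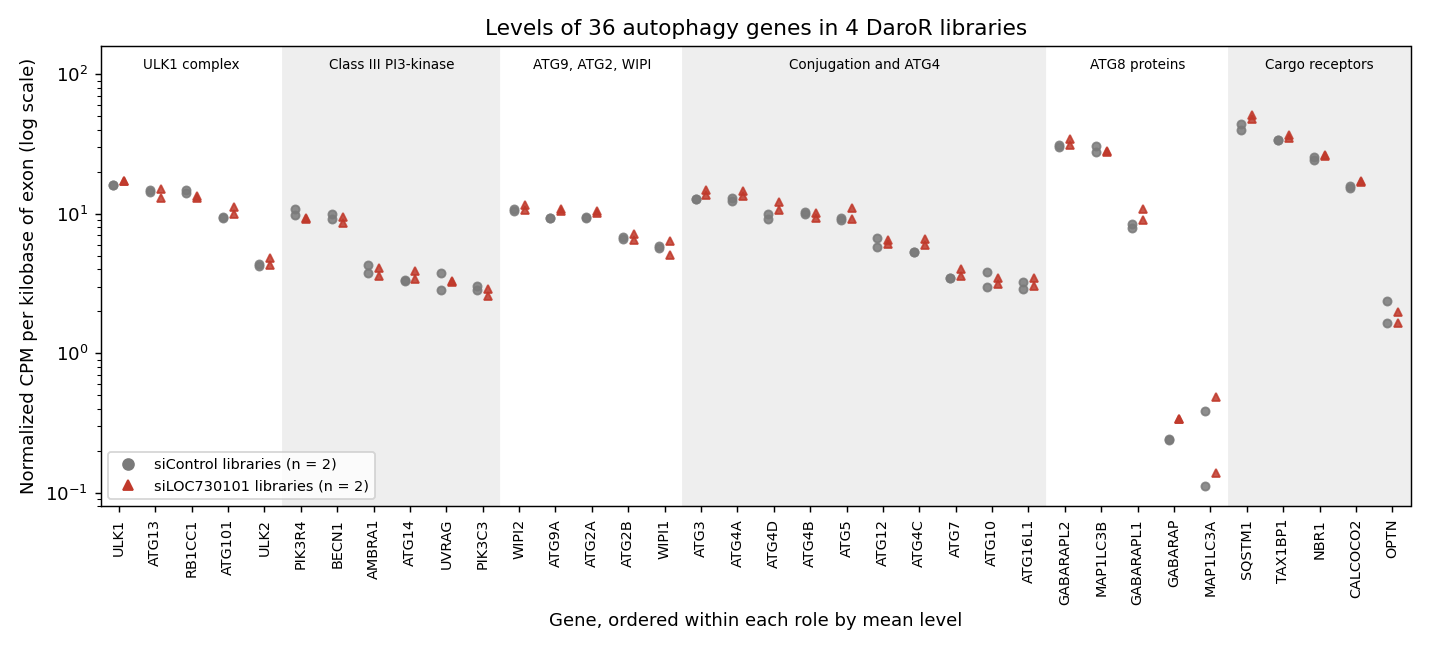
Normalized CPM per kilobase of exon (log axis) of each of the 36 autophagy genes, ordered by mean level within 6 roles. Grey circles are the 2 siControl libraries and red triangles the 2 siLOC730101 libraries; SQSTM1 is highest at 40.0 to 50.9, and GABARAP and MAP1LC3A lie below 1.

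Among the 35 pairs of neighbours in the order of mean level, the ranges over the 4 libraries overlapped in 26 pairs, so most neighbours were not separated by their ranges. These ranges pool both groups. A pair with overlapping ranges can keep its order within each library, as TAX1BP1 and GABARAPL2 did, and order within libraries was not counted. The median member had 9.68 CPM per kilobase. Within the ULK1 complex, the kinase ULK1 had the highest level with 16.6 CPM per kilobase, and its relative ULK2 the lowest with 4.43. Within the class III PI3-kinase complex, the regulatory subunit PIK3R4 had 9.76 CPM per kilobase, and the catalytic subunit PIK3C3 had 2.84. The phosphoinositide-binding proteins WIPI2 and WIPI1 had 10.9 and 5.75 CPM per kilobase, the highest and lowest means of their group, although the libraries of WIPI2 overlapped those of ATG9A. Per kilobase of exon not shared with other genes, the highest or lowest gene changed in 2 roles: ATG9A (16.3 CPM) lay above WIPI2 and ATG2B (6.77 CPM) below WIPI1 (8.0 CPM), and BECN1 (11.3 CPM) lay above PIK3R4. Of the conjugation enzymes and proteases, ATG3, the E2-like enzyme for ATG8 proteins, was highest with 13.4 CPM per kilobase, close to the protease ATG4A, and ATG16L1, which places the ATG12-ATG5 conjugate on membranes, was lowest with 3.17. OPTN, a receptor known for damaged mitochondria, was the lowest receptor with 1.91 CPM per kilobase.

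Some related genes kept their order in all 4 libraries, and others did not. ATG4B lay above ATG4D in siControl (10.0 and 10.2 against 9.89 and 9.16 CPM per kilobase). It lay below ATG4D in siLOC730101 (10.1 and 9.28 against 10.6 and 12.2 CPM per kilobase). This switch depends on the length used, because 14.7% of the exon bases of ATG4D and 0.0% of those of ATG4B are shared with other genes. Per kilobase of unshared exon, ATG4D had the higher mean over the 4 libraries (12.3 against 9.9 CPM). The following pairs kept their order. ULK1 had 3.58 to 3.97 times the per-kilobase level of ULK2, and the lipid transfer protein ATG2A had 1.39 to 1.61 times that of ATG2B. WIPI2 had 1.66 to 2.29 times the level of WIPI1. GABARAPL2 had 3.18 to 3.99 times the level of GABARAPL1, with the lowest ratio in siLOC730101 replicate 2. These ratios rest on the length of all annotated exons, are descriptions of 4 libraries and were not tested.

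A pair of ATG8 genes was close to the detection limit. GABARAP, the founding member of its subfamily, was listed with 25 and 22 counts in the siControl libraries and with 27 and 25 in the siLOC730101 libraries, which do not overlap after normalization. MAP1LC3A, the LC3A gene, was listed with 24 and 6 counts in the siControl libraries and with 23 and 6 in the siLOC730101 libraries. By comparison, MAP1LC3B had 8312 and 6551 counts in siControl. The low value of GABARAP stands beside an overlap in the annotation. Of the 1951 exon bases of GABARAP in the table, 941 (48.2%) are also exon bases of other genes, mainly of ENSG00000262526 on the same strand, a gene that had 0 counts in every library. In a GRCh37 annotation, 68.2% of the 1319 bases of the main coding transcript of GABARAP lie under exons of other genes, the highest share of the 36 genes. At its default setting, featureCounts gives a read that overlaps several genes to none of them. The part of the overlap in the low count was not tested. MAP1LC3A shared 0 of its 1152 exon bases with other genes.

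Shared exons also bear on SQSTM1 and ATG9A. In the table, 22.4% of the exon bases of SQSTM1 and 38.8% of those of ATG9A are shared with another gene. For SQSTM1 the main partner is MRNIP on the opposite strand, and for ATG9A it is ENSG00000284820 on the same strand, which had 3 to 6 counts. In the main coding transcript of SQSTM1 on GRCh37 the shared part is 55.7%. MRNIP averaged 5.09 ± 0.605 normalized CPM (SD, n = 2) with control siRNA and 5.80 ± 1.20 normalized CPM (SD, n = 2) with siLOC730101, far below SQSTM1, and its groups overlapped. Per kilobase of unshared exon, SQSTM1 had 58.8 CPM and ATG9A 16.3 CPM. Of the 36 genes, 17 shared no exon base with another gene of the table and 33 shared 25% or less. Processed copies were listed with few reads: MAP1LC3B2, a retrogene of MAP1LC3B, had 10 to 18 counts, GABARAPL3, a copy of GABARAPL1, had 3 to 10 counts, and SQSTM1P1 had 0 counts. Reads that fit a copy and its parent equally were not examined, so these counts do not show how many reads the parents lost.

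The libraries with and without siLOC730101 were then compared to ask whether loss of LOC730101 moved the autophagy genes. The quasi-likelihood test of edgeR called none of the 36 genes at an adjusted p of 0.05, with p-values adjusted over all 19349 genes by the Benjamini-Hochberg method, and DESeq2 also called 0 of them. Over all genes tested, 41 genes (0.212%) were called higher and 14 genes (0.0724%) lower at this threshold, or 58 and 35 genes with library size only, so that a list of this length would hold few or no calls at the background rate. At an unadjusted p under 0.05 in edgeR there were 2 of the 36 autophagy genes (5.56%), SQSTM1 and GABARAPL1, both higher, against 10.8% of all genes tested (6.43% higher and 4.39% lower). With 2 against 2 libraries, exact permutation of the labels of a gene gives a two-sided p of 0.333 at best.

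The changes were small. The log2 fold changes of siLOC730101 against siControl had a median of 0.087 over the 36 genes, beside -0.0021 over all genes tested, and 24 of the 36 genes (66.7%) lay above 0, beside 49.6% of all genes. Over the libraries left out in turn, 24, 25, 27 or 23 of the 36 genes lay above 0, and the median lay between 0.051 and 0.11. With library size only and no scaling factors, the median over the 36 genes was 0.051 and that over all genes was -0.039, and 22 of the 36 genes lay above 0. Both siLOC730101 libraries lay above both siControl libraries in 16 of the 36 genes (44.4%) and below them in 2 genes (5.56%), RB1CC1 and PIK3R4. Over all genes tested, the groups did not overlap in 41.7%, with siLOC730101 higher in 21.3% and lower in 20.5%. The summed normalized CPM of the 36 genes was 2602 and 2626 in siControl and 2713 and 2787 in siLOC730101. Without SQSTM1 the sum was 2301 and 2295 in siControl and 2352 and 2404 in siLOC730101, a smaller difference.

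**Figure D2:**
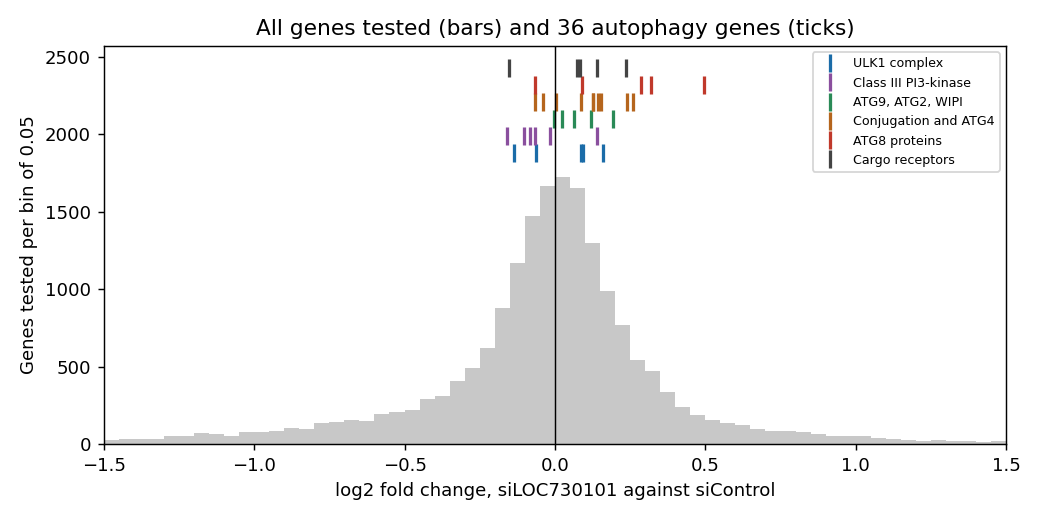
Histogram of the log2 fold changes, siLOC730101 against siControl, of the genes tested (grey, bins of 0.05, with 542 of 19349 genes outside the axis), with a tick for each of the 36 autophagy genes coloured by role. The ticks lie between -0.16 and 0.49, and 24 of the 36 genes lie above 0.

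For 34 of the 36 genes the 95% interval of the fold change, from the standard error and degrees of freedom of edgeR, lay within a 1.5-fold change in either direction. The intervals of GABARAP (0.496 to 4.0 in fold) and MAP1LC3A (0.278 to 5.60 in fold) were too wide to say whether they changed. OPTN, with 8.47 to 12.1 normalized CPM, had the next widest interval, from 0.671 to 1.21 in fold.

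**Figure D3:**
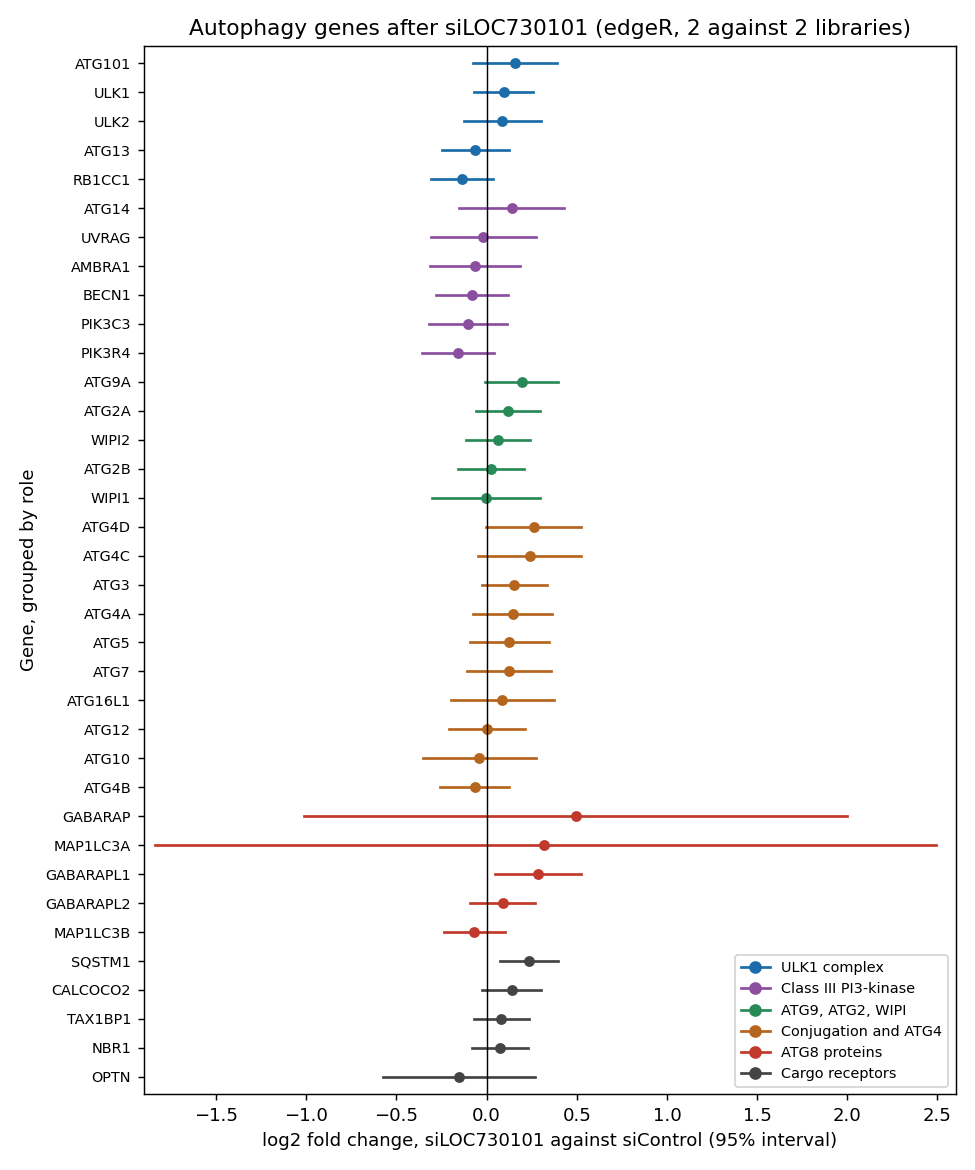
Log2 fold change of each of the 36 autophagy genes, siLOC730101 against siControl, with 95% intervals from edgeR (2 against 2 libraries), grouped and coloured by role. The intervals of SQSTM1 and GABARAPL1 lie above 0 before adjustment for the genes tested, and those of GABARAP and MAP1LC3A are the widest.

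The cargo receptors held the member with the lowest p. SQSTM1 had 301.3 and 330.5 normalized CPM in siControl and 361.4 and 383.1 in siLOC730101, so the groups did not overlap. The difference was 0.24 on the log2 scale (standard error, SE, 0.076), or 1.18-fold with a 95% interval from 1.05 to 1.32. In edgeR the difference had an unadjusted p of 0.00688 and an adjusted p of 0.221. With the DESeq2 Wald test the difference had an adjusted p of 0.0527, just over the threshold. Its size depended on single libraries. When a library was left out, the log2 fold change lay between 0.17 (without siControl replicate 1) and 0.31 (without siControl replicate 2). CALCOCO2, the NDP52 receptor for bacteria and damaged mitochondria, had 127.7 and 130.5 normalized CPM in siControl and 143.2 and 141.3 in siLOC730101. Its libraries did not overlap either, with a log2 fold change of 0.14 (SE 0.076, adjusted p = 0.545, edgeR). TAX1BP1 had 310.7 and 310.1 normalized CPM in siControl and 320.4 and 337.1 in siLOC730101, and NBR1 had 213.6 and 204.7 in siControl and 217.8 and 222.5 in siLOC730101. In both receptors the siLOC730101 libraries were again the higher ones, with adjusted p-values of 0.749 and 0.791 in edgeR. OPTN went the other way in its mean, with 8.51 and 12.1 normalized CPM in siControl and 8.47 and 10.1 in siLOC730101, and its groups overlapped. Of the 5 receptors, 0 were called in either direction, and their median log2 fold change was 0.083.

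Among the ATG8 proteins, GABARAPL1 had 31.8 and 34.2 normalized CPM in siControl and 36.8 and 43.7 in siLOC730101. The groups did not overlap, and siLOC730101 replicate 2 stood highest. The log2 fold change was 0.29 (SE 0.11), or 1.22-fold with a 95% interval from 1.03 to 1.44 (unadjusted p = 0.0223, adjusted p = 0.336, edgeR). It was 0.42 with an adjusted p of 0.0241 in edgeR without siLOC730101 replicate 1, and 0.16 without siLOC730101 replicate 2. MAP1LC3B, whose protein is the usual marker of autophagosomes, had 153.8 and 140.0 normalized CPM in siControl and 141.7 and 138.7 in siLOC730101. Its groups overlapped, and its log2 fold change of -0.067 (SE 0.080, adjusted p = 0.837, edgeR) became 0.0036 without siControl replicate 1. GABARAPL2 had 94.4 and 91.0 normalized CPM in siControl and 93.8 and 103.3 in siLOC730101, also overlapping. None of the 5 ATG8 genes was called.

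**Figure D4:**
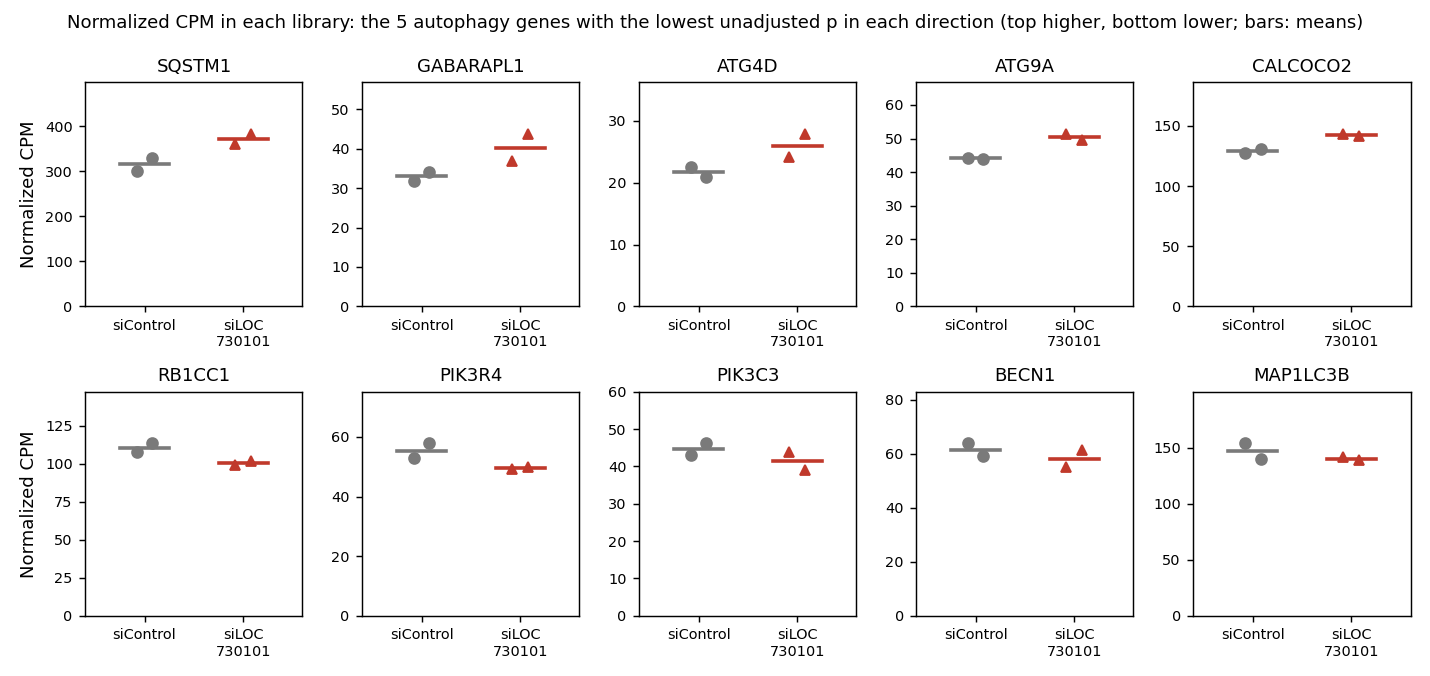
Normalized CPM in each library for the 5 autophagy genes with the lowest unadjusted p among those above 0 (top row) and the 5 among those below 0 (bottom row), with axes from 0. Points are libraries (n = 2 per group) and bars their means; groups do not overlap in the top row and in RB1CC1 and PIK3R4, and overlap in PIK3C3, BECN1 and MAP1LC3B.

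The enzymes that conjugate ATG8 and ATG12, with the ATG4 proteases that process ATG8, had a median log2 fold change of 0.13 over 10 genes, 0 of which were called. ATG4D, an ATG4 protease, had 22.5 and 20.9 normalized CPM in siControl and 24.1 and 27.9 in siLOC730101. The groups did not overlap, with a log2 fold change of 0.26 (SE 0.12, adjusted p = 0.472, edgeR), and leaving out siLOC730101 replicate 2 gave 0.15, against 0.37 when replicate 1 was left out. Groups also did not overlap in ATG3, ATG7, ATG4A and ATG4C, in each of which the siLOC730101 libraries were higher. ATG7, the E1-like enzyme of both conjugation chains, had 30.8 and 30.8 normalized CPM in siControl and 35.7 and 31.6 in siLOC730101. In ATG5, ATG10, ATG12, ATG16L1 and ATG4B the libraries of both groups overlapped; ATG5, the partner of ATG12, had 52.5 and 51.4 normalized CPM in siControl and 51.5 and 62.0 in siLOC730101.

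In the group of ATG9, ATG2 and WIPI proteins, 0 of 5 genes were called and the median log2 fold change was 0.065. ATG9A, the membrane-spanning lipid scramblase that seeds the autophagosome, had 44.1 and 44 normalized CPM in siControl and 51.3 and 49.5 in siLOC730101. The replicates lay close together and the groups apart, with a log2 fold change of 0.19 (SE 0.094, unadjusted p = 0.0567, adjusted p = 0.484, edgeR) that stayed between 0.16 and 0.22 over the alternatives. ATG2A had 74.1 and 73.3 normalized CPM in siControl and 78.8 and 81.4 in siLOC730101 and did not overlap, whereas ATG2B, WIPI1 and WIPI2 overlapped.

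The class III PI3-kinase complex was the role with most members below 0, 5 of 6 genes, with a median log2 fold change of -0.073 and 0 genes called. Over all genes tested, 9747 of 19349 lay below 0. In 4 of the 6 genes the change was smaller than its SE. PIK3R4 had 52.9 and 57.8 normalized CPM in siControl and 49.4 and 49.8 in siLOC730101. Its groups did not overlap, and the log2 fold change was -0.16 (SE 0.094, adjusted p = 0.585, edgeR). Leaving out siControl replicate 2 gave -0.091, and leaving out siControl replicate 1 gave -0.22. PIK3C3 had 43.0 and 46.2 normalized CPM in siControl and 43.9 and 39.1 in siLOC730101, a log2 fold change of -0.10 (SE 0.10, adjusted p = 0.793, edgeR) that was -0.024 without siLOC730101 replicate 2. BECN1, the Beclin 1 scaffold, had 63.8 and 59.2 normalized CPM in siControl and 55.0 and 61.3 in siLOC730101. Its log2 fold change of -0.082 (SE 0.094, adjusted p = 0.829, edgeR) became 0.0030 without siLOC730101 replicate 1, and the groups of both genes overlapped. ATG14, which directs the complex to autophagy, was the member above 0, with 16.5 and 16.7 normalized CPM in siControl and 19.6 and 17.0 in siLOC730101. UVRAG, which takes the place of ATG14 in the endosomal form of the complex, had 20.9 and 27.6 normalized CPM in siControl and 24.1 and 23.7 in siLOC730101. AMBRA1, a Beclin 1 partner, had 32.9 and 28.9 in siControl and 31.5 and 27.6 in siLOC730101, so that replicate 1 was the higher library in both groups.

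Within the ULK1 complex, RB1CC1 (also called FIP200) had 107.6 and 113.3 normalized CPM in siControl and 99.4 and 101.5 in siLOC730101. It was, with PIK3R4, the other gene in which both siLOC730101 libraries were the lower ones, with a log2 fold change of -0.14 (SE 0.080, adjusted p = 0.580, edgeR). ULK1 had 123.4 and 121.9 normalized CPM in siControl and 131.8 and 130.1 in siLOC730101, and ATG101, which stabilises ATG13, had 30.3 and 30.0 in siControl and 31.8 and 35.6 in siLOC730101. Neither overlapped. ULK2 and ATG13 overlapped, and 0 of the 5 genes were called.

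Genes that act beside the 36 were counted in 5 further lists, covering 69 genes of which 67 were tested. The list of 14 genes for fusion of autophagosomes with lysosomes had 0 calls and a median log2 fold change of 0.068. Of 13 other core genes tested, 0 were called, with a median of 0.018. Of 15 upstream kinases and mTORC1 genes, 0 were called, with a median of 0.046, and of 7 transcription factors named for autophagy genes, 0 were called, with a median of 0.16. At an unadjusted p under 0.05 in edgeR, the 5 lists held 6 genes above 0 and 4 genes below 0 (14.9% of the 67 genes, beside the 10.8% of all genes). The list of receptors for mitochondria and the ER, with other adaptors, held 2 of the former and all 4 of the latter, 33.3% of its 18 genes tested. Of these 18 genes 1 was called, TOLLIP, an adaptor with a ubiquitin-binding CUE domain. TOLLIP is among the 4 genes below 0 and was put on the list with its change already known. Both shares count it, so neither can be compared with the share over all genes. TOLLIP had 180.7 and 192.1 normalized CPM in siControl and 111.7 and 120.8 in siLOC730101, a log2 fold change of -0.68 (SE 0.080, adjusted p = 7.87e-04, edgeR). This is a fold of 0.624 with a 95% interval from 0.554 to 0.701. The median of the 18 genes was 0.0023, and MAP1LC3C and FUNDC1 had 0 counts in every library and were not tested.

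The study asked whether LOC730101 holds back the microRNA miR-1-3p, so the 3′ UTRs of the autophagy genes were searched for its seed match. The mature sequence from RefSeq (GRCh38.p14) is shown with its seed, bases 2 to 8, in capitals.

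hsa-miR-1-3p: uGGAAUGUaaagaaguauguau

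The sites searched were ACATTCC (7mer-m8), CATTCCA (7mer-A1) and ACATTCCA (8mer, which contains both), on the strand of the gene, in the 3′ UTR of 1 coding transcript a gene in a GRCh37 annotation. Of the 36 autophagy genes, 5 genes (13.9%) held a site, 1 site each, and 22.2% of the 13550 protein-coding genes tested that had a 3′ UTR did. The sites are shown in capitals with the bases around them, read 5′ to 3′ along the transcript, because they show which members carry a match to the seed.

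ATG13, 8mer, plus strand, GRCh37 chr11:46694279-46694286: actgtttgACATTCCAgctgg
ATG14, 7mer-m8, minus strand, GRCh37 chr14:55835736-55835742: tttgtcagACATTCCtgtttt
PIK3C3, 7mer-m8, plus strand, GRCh37 chr18:39664754-39664760: aaatgtgcACATTCCcaatcc
ATG12, 7mer-A1, minus strand, GRCh37 chr5:115166514-115166520: tttagaaagCATTCCAgatca
WIPI2, 7mer-A1, plus strand, GRCh37 chr7:5271715-5271721: cagactctgCATTCCAaacca

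The site genes did not move together. ATG13, which carries the 8mer, had 103.9 and 100.6 normalized CPM in siControl and 91.2 and 104.8 in siLOC730101, so that siLOC730101 replicate 1 was lowest and replicate 2 highest of the 4 libraries. ATG12, the ubiquitin-like partner of ATG5, had 51.5 and 59.7 normalized CPM in siControl and 53.9 and 57.4 in siLOC730101. WIPI2 had 94.0 and 97.3 in siControl and 95.6 and 104.5 in siLOC730101. Among the site genes, 2 of 5 (40.0%) had a log2 fold change below 0 and the median was 0.0024, with values from -0.10 to 0.14. Among the 31 autophagy genes without a site, 10 (32.3%) lay below 0 and the median was 0.089. Over all protein-coding genes with a 3′ UTR, 52.4% of those with a site and 44.6% of those without lay below 0. This difference was not tested, and genes with a site also had longer 3′ UTRs. The median length was 2980.5 bases with a site and 979 without, and 3228 and 1319 bases among the autophagy genes. None of the 5 site genes was called, and the difference between 5 and 31 genes was not tested.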

How the data were processed

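RNA from 2 siControl and 2 siLOC730101 libraries of DaroR cells was analysed. The deposited values are raw counts per gene, made by the authors with featureCounts 2.0.1 over exons after trimming and alignment. The aligner is STAR in the methods of the paper and BWA in the processing notes of the submitters. The file header names hg38 with gencode version 41, while the methods name hg19. The header shows no paired-end or strand option, and 66.0% to 70.1% of the values from 1 to 20 counts in a library were even, and whether mates were counted separately was not tested. All value columns were mapped to the 4 libraries, and the exon lengths of the table were used as deposited. Nothing in the labels says that replicates came from separate cultures, so p-values measure the spread between these libraries only.

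Counts were fitted in R 4.3.3 with edgeR 4.0.16 (filterByExpr, TMM, glmQLFit and glmQLFTest at their defaults) over all genes, with the condition as the only term and Benjamini-Hochberg adjustment at 0.05. DESeq2 1.42.0 was an alternative. Replicate libraries differed by more than sampling noise (chi-square per degree of freedom 10.6 and 13.0). In simulated counts, 64.0% of 200 genes changed 1.5-fold and 80.0% of 200 genes changed 2-fold were recovered. Exon overlaps and microRNA sites were computed in Python 3.11.15. Genes that overlap others or have near copies are uncertain.

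The autophagy genes and all other lists were chosen with earlier results of these data known. Fold changes are given for members with an adjusted p under 0.05 (there were 0) and for the 5 members with the lowest unadjusted p in each direction. Levels are given for the highest and lowest member of each role, and values of other members, among them GABARAP, were chosen after they were seen. Of the further lists, up to 3 genes with an adjusted p under 0.05 were named.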

Additional observations from a re-analysis of the deposited data

How the results depend on the processing

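Neither the scalings, the filters nor DESeq2 called any of the 36 autophagy genes. With the unadjusted threshold and a mean normalized count above 50, 2 genes were higher and 0 lower. In fits without a library, the group left with 1 library was assumed to vary like the other, so their calls of single genes are not given. Without siLOC730101 replicate 1, the log2 fold changes of SQSTM1 and GABARAPL1 were 0.288 and 0.415. The replicate numbers are not stated to mark shared cultures, and deviations of same-numbered libraries had a correlation of 0.027 across genes. With a replicate block, 1 autophagy gene was higher, SQSTM1 (adjusted p = 0.0264, edgeR), while over all genes 485 were higher and 167 lower. The median log2 fold change of the autophagy genes, 0.087, was 0.057 with upper-quartile factors and 0.0506 with library size only, and 0.0506 to 0.105 when a library was left out. Of the 10 genes given with fold changes, 8 kept their direction under all 13 alternatives. With all libraries, MAP1LC3B had -0.0671 and BECN1 -0.0818. When a library was left out, MAP1LC3B lay between -0.13 (without siControl replicate 2) and 0.00362 (without siControl replicate 1). BECN1 lay between -0.164 (without siLOC730101 replicate 2) and 0.00301 (without siLOC730101 replicate 1). Over all genes, 41 were higher and 14 lower. These counts were 324 and 113 with no filter beyond 1 count, 137 and 50 with a mean normalized count above 50, 233 and 64 with DESeq2, and 87 and 24 with the legacy method off. With library size only they were 58 and 35. Leaving out each library gave 77 to 923 higher and 26 to 272 lower. Per kilobase of unshared exon, an alternative chosen after seeing the data, SQSTM1 had 58.8 and WIPI1 8.0 CPM. The causes of these shifts were not tested. GABARAP and MAP1LC3A had at most 27 counts in a library, which leaves their intervals wide.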
